A study of Mus musculus with 4 samples.

Results

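Transcripts of 10 genes for proteases that break down the extracellular matrix and for their inhibitors were followed through the immune cells of mouse mammary tumors. The genes were taken by name as a list of matrix metalloproteinases (Mmp12, Mmp13, Mmp14, Mmp19 and Mmp25), 1 cysteine protease (Ctsk, cathepsin K), 2 further proteases of the cell surface and the plasminogen system (Adam8 and Plau) and 2 inhibitors (Timp1 and Timp2), and they are 10 of the 32285 genes in the table of counts. The cells came from tumors of EO771, a mammary carcinoma line of C57BL/6 mice, grown in female mice until they reached 1.5 cm3. All mice carried floxed alleles of Csf1r, which encodes the receptor for macrophage colony-stimulating factor, and they were either Csf1rfl/fl controls (2 tumors) or Lyve1CreCsf1rfl/fl animals (2 tumors), in which Cre driven by the Lyve1 promoter removes the receptor from cells that express Lyve1 or come from cells that did. Live CD45+ cells of each tumor were labeled with a hashtag antibody, and each of 2 Chromium runs pooled 1 tumor of each genotype, so that genotype was compared within and across runs. Each tumor is 1 mouse, and values given in pairs below name the tumor of run 1 first.

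Matrix metalloproteinases are zinc enzymes made as inactive precursors that cleave collagens, elastin, proteoglycans and cell surface proteins once their propeptide is removed. Most are secreted, whereas the membrane-type enzymes stay bound to the plasma membrane, where they also activate other metalloproteinases. Tissue inhibitors of metalloproteinases (TIMPs) bind the active site and hold this activity in check, and in tumors much of the protease supply is known to come from macrophages, neutrophils and fibroblasts rather than from the carcinoma cells.

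Mmp13 (ENSMUSG00000050578, chromosome 9: 7272514 to 7283331, plus strand, mm10) and Mmp12 (ENSMUSG00000049723, chromosome 9: 7344381 to 7369499, plus strand) are neighbors in the metalloproteinase gene cluster and lie 61.05 kb apart. Their promoter sequences are shown because both genes were highest in the macrophage gates and their levels by genotype are described below. RefSeq (GRCm38.p6, the patch release of mm10) gives 1 start for Mmp13 and 2 for Mmp12, each shown as 250 bases before to 50 bases after the start, on the plus strand. Promoters of 8 of the 10 genes were in this table, those of Mmp19 and Plau were not matched.

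Mmp13, chr9:7272264-7272563: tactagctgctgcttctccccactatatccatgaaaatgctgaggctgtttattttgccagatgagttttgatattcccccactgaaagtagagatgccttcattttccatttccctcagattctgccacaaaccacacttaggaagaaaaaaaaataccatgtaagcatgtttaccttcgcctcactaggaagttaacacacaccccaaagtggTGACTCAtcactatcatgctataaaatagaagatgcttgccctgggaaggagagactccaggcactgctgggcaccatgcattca

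Mmp12 first start, chr9:7344147-7344446: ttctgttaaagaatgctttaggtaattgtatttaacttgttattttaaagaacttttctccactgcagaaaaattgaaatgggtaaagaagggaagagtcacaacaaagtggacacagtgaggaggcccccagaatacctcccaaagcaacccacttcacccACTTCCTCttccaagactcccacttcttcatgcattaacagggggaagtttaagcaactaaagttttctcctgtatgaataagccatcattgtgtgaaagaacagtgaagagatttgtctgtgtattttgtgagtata

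Mmp12 second start, chr9:7347124-7347423: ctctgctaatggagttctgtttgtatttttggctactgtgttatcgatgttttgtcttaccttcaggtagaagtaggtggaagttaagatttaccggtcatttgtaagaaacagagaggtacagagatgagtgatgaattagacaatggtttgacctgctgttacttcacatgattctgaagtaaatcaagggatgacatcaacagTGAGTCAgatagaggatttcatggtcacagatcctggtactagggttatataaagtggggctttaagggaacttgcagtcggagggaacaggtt

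Capitals mark matches, on either strand, to the letters TGANTCA, which AP-1 factors bind, and GAGGAAGT (ACTTCCTC on the other strand), which PU.1 binds. The Mmp13 promoter held TGACTCA 35 bases before the start, and the second Mmp12 promoter held TGAGTCA 44 bases before the start. The first Mmp12 promoter held ACTTCCTC 88 bases before the start. Among all 32851 promoters of this length in the table, 7.81% held the AP-1 letters and 3.20% the PU.1 letters. The motif of NF-kB, searched in the same way, was in 1.63% of all promoters and in no window of the 8 members. The counts come from the 3' ends of transcripts and do not tell which start was used.

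The deposited table of raw counts held 53361 barcodes, of which the authors kept 28429 cells. The kept cells numbered 8699 and 7786 in the Csf1rfl/fl tumors and 7173 and 4771 in the Lyve1CreCsf1rfl/fl tumors, with 27686362 to 56715743 unique molecular identifiers (UMIs, each standing for 1 captured transcript) per tumor. The runs shared 60 barcode sequences among kept cells, which are separate cells of separate runs. Cells were assigned to 13 gates by lineage markers, none of which is one of the 10 genes or of their pathway, and 77.3% of the kept cells fell into a gate. The gates are cut-offs on marker counts and not natural borders: 88 of the 1075 C1q macrophages were at the cut-off of 5 C1q UMIs or 1 above it. The 23 B cells were too few and are left out. Of the 6467 ungated cells, 47.1% were called doublets by Scrublet. They held 42.2% of all Mmp12 UMIs and 49.9% of all Mmp13 UMIs, with 29.5% of all UMIs, and so the levels below describe the cells that could be assigned cleanly. The mean of C1qa, a gate marker, was 19.4 UMIs per 10000 in C1q macrophages and at most 0.113 in the other gates. The gate of tumor cells and stroma, 234 cells with Krt8 at 1.26 to 1.90 UMIs per 10000, was low for Ptprc, the gene of CD45 (0.159 to 0.268, against 2.09 to 21.0 in the other gates). It had a median of 47290 UMIs per cell, and 43.6% of its cells were called doublets.

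Csf1r, the targeted gene, was measured at 1.88 and 2.47 UMIs per 10000 in the C1q macrophages of Csf1rfl/fl tumors and at 1.41 and 1.69 in those of Lyve1CreCsf1rfl/fl tumors. In Ly6c2 monocytes it was at 2.38 and 2.30 against 1.50 and 1.48. Since 3' end counts need not cover the deleted exon, these levels are no check of recombination. Lyve1 itself had a level of 0 in monocytes and Arg1 macrophages of all 4 tumors, and it was highest in the tumor cells and stroma (0.0819 to 0.159).

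Levels are given as UMIs of the gene per 10000 UMIs of all genes, summed over the cells of a gate in 1 tumor. Mmp12 encodes macrophage elastase, and it was highest in the macrophage gates. In the 171 Arg1 macrophages, phagocytes with at least 2 Arg1 or Gpnmb UMIs and fewer than 5 C1q UMIs, Mmp12 was at 4.97 and 12.5 in the Csf1rfl/fl tumors and at 8.23 and 0.0936 in the Lyve1CreCsf1rfl/fl tumors. The last of these values is a single UMI in 22 cells, and the other 3 tumors were far above it. Scrublet called 7.14% and 6.52% of the Arg1 macrophages doublets in the Csf1rfl/fl tumors, and 36.4% and 0% in the Lyve1CreCsf1rfl/fl tumors. In C1q macrophages Mmp12 was at 2.06 and 2.19 against 3.97 and 4.73. Tumor ranges of Arg1 macrophages, C1q macrophages and other phagocytes overlapped, and all 4 tumors had more Mmp12 in other phagocytes (mean 2.98 ± 3.20, SD, n = 4) than in Ly6c2 monocytes (0.559 ± 0.128).

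In the other phagocytes, phagocytes with no Arg1 or Gpnmb UMI, at most 1 C1q UMI and fewer than 10 UMIs of the monocyte markers, Mmp12 was at 0.830 and 2.38 against 7.67 and 1.05. The high value of the Lyve1CreCsf1rfl/fl tumor of run 1 came mostly from 1 cell with 264 of the 404 Mmp12 UMIs, and it was 2.72 without that cell. T cells, which are not known to make macrophage elastase, had 0.0362 to 0.121. After each cell was thinned to 1500 UMIs, 12.4% ± 3.54 (SD, n = 4) of C1q macrophages and 0.536% ± 0.204 of T cells had an Mmp12 UMI (21.9% and 1.11% before thinning), and free RNA can give UMIs to cells that do not express a gene.

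Mmp13 encodes collagenase-3, which cleaves fibrillar collagen, and it was found in the same gates. It was at 0.885 and 0.708 in C1q macrophages of the Csf1rfl/fl tumors and at 1.45 and 2.03 in those of the Lyve1CreCsf1rfl/fl tumors. Arg1 macrophages had 0.350 and 2.24 against 1.98 and 0.655, with no order between the genotypes. A single cell held 74.1% of the UMIs behind 2.24, which was 0.591 without it, and all 7 UMIs behind 0.655. C1q macrophages were above the other phagocytes (0.189 to 0.455) in all 4 tumors, and those were above Ly6c2 monocytes (0.0583 to 0.134). T cells had at most 0.0125 in any tumor.

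Both transcripts sat in few cells. Of the 1075 C1q macrophages, 213 had an Mmp12 UMI, 186 had an Mmp13 UMI and 70 had both. An Mmp12 UMI was found in 37.6% of the cells with Mmp13 and in 16.1% of the others, and the Mmp13 cells were also the deeper ones (median 6580 against 5542 UMIs). Within each tumor, the top 5% of C1q macrophages held 71.7% to 83.7% of the Mmp12 UMIs and 62.4% to 85.2% of the Mmp13 UMIs. C1q macrophages with an Arg1 or Gpnmb UMI (8.43% to 17.7% of the gate) had Mmp12 at 7.38 to 14.8, and those without had 1.20 to 3.85.

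Mmp19, a secreted enzyme of basement membrane and matrix proteins, was low and found mainly in the monocyte and macrophage gates. Its mean was 0.472 ± 0.324 in Arg1 macrophages, 0.289 ± 0.147 in Ly6c2 monocytes, 0.261 ± 0.0580 in other phagocytes and 0.234 ± 0.114 in C1q macrophages (SD, n = 4), and the tumor ranges of these neighbors overlapped. All 4 were above neutrophils (0.0496 to 0.105) in every tumor, and dendritic cells had less (0.0526 on average in Cd209a, 0.0267 in mature dendritic cells and 0.0239 in cDC1). In Ly6c2 monocytes the levels followed the run rather than the genotype, at 0.144 and 0.205 in the tumors of run 1 and at 0.475 and 0.331 in those of run 2.

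**Figure D1:**
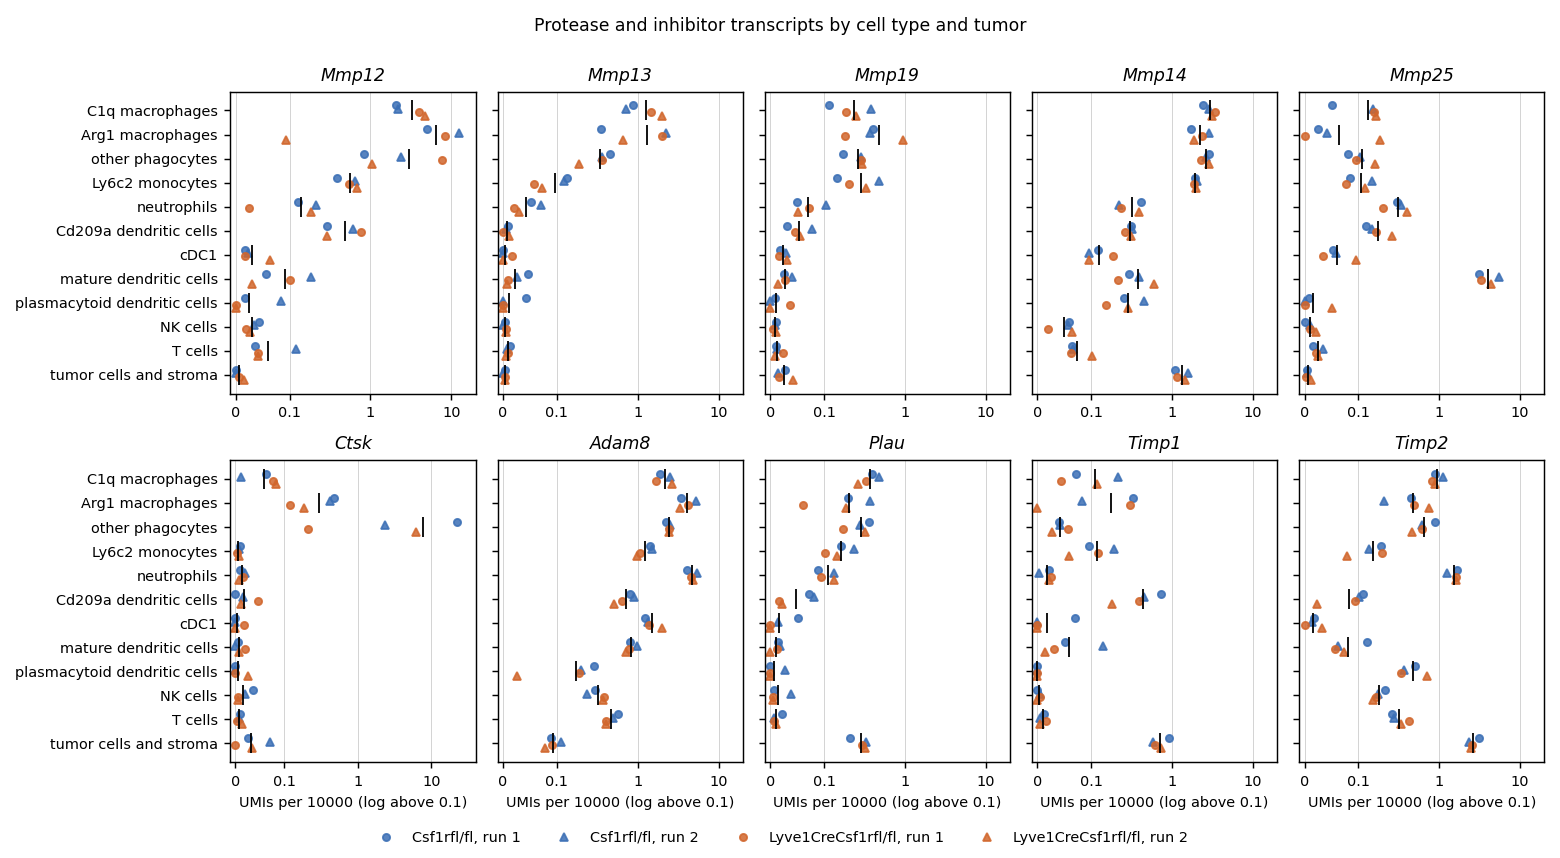
UMIs per 10000 of each gene (x axis, linear below 0.1 and logarithmic above) in 12 gates (y axis) for the 4 tumors, with color for genotype, symbol shape for the run and a black line for the mean. Mmp12 and Mmp13 were high in macrophages, Mmp25 in mature dendritic cells, Adam8 in neutrophils and Arg1 macrophages, and Timp2 in tumor cells and stroma and in neutrophils.

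Mmp14 encodes MT1-MMP, the membrane-type enzyme that cleaves collagen at the cell surface and activates pro-MMP2 with the help of TIMP2. It was present in all mononuclear phagocyte gates at like levels. C1q macrophages had 2.39 and 2.87 in the Csf1rfl/fl tumors and 3.45 and 3.14 in the Lyve1CreCsf1rfl/fl tumors. Other phagocytes (2.28 to 2.89), Arg1 macrophages (1.70 to 2.86) and Ly6c2 monocytes (1.86 to 2.01) followed, each overlapping with the neighbor above it. Tumor cells and stroma had 1.09 to 1.59, below the monocytes in all 4 tumors, and T cells had 0.0628 to 0.103.

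Mmp25, the GPI-anchored MT6-MMP known as leukolysin of neutrophils, was here a transcript of mature dendritic cells, the Ccr7+ Fscn1+ cells that migrate to lymph nodes. It was at 3.09 and 5.41 in the Csf1rfl/fl tumors and at 3.28 and 4.32 in the Lyve1CreCsf1rfl/fl tumors, with the tumors of run 2 above those of run 1 in both genotypes. Neutrophils came next with 0.2 to 0.4, and the mean in mature dendritic cells was 13.1 times theirs. After thinning to 1500 UMIs, 43.1% ± 7.72 (SD, n = 4) of mature dendritic cells had an Mmp25 UMI (74.1% before), against 5.07% ± 1.18 of neutrophils (6.90% before, 1175 shallow neutrophils left out). Mature dendritic cells held 59.9% of all Mmp25 UMIs while they were 5.74% of the kept cells, with 5.32% of all UMIs. The other dendritic cells had much less, with 0.0338 to 0.0950 in cDC1 and 0.123 to 0.258 in Cd209a dendritic cells.

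Cathepsin K is the collagenolytic cysteine protease by which osteoclasts resorb bone matrix. Ctsk had 2777 UMIs in the kept cells and these were not spread as for the other members. A single cell of the Csf1rfl/fl tumor of run 1 held 1367 of them (49.2%), and the 10 richest cells held 84.3%. For comparison, the 10 richest cells held 0.776% of Adam8 UMIs and 14.8% of Mmp12 UMIs. There was a gap between 13 cells with at least 38 Ctsk UMIs and all others, which had at most 14. The 13 cells came from all 4 tumors (5 and 3 from the Csf1rfl/fl tumors, 1 and 4 from the Lyve1CreCsf1rfl/fl tumors), all were in 1 cluster made without the protease genes, 9 were among the other phagocytes and 6 were called doublets.

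These 13 cells, which were chosen by their Ctsk counts after the values had been seen, also held other transcripts known from osteoclasts. Acp5, the tartrate-resistant acid phosphatase, was at 49.4 UMIs per 10000 in them and at 2.96 in C1q macrophages. Mmp9, the gelatinase, was at 41.9 and 0.0642, and Atp6v0d2, a proton pump subunit, at 6.33 and 0.0669. Nfatc1 was at 5.37 and 0.324, Ocstamp at 3.72 and 0.594 and Dcstamp at 1.33 and 0.0178, with a UMI in 13, 12 and 9 of the 13 cells. These cells were deep, with a median of 21726 UMIs against 5683 in C1q macrophages and 2035 in other phagocytes, and the part of depth in these counts of cells was not tested. The richest cell held 553 of the 1342 Acp5 UMIs, 319 of the 1139 of Mmp9 and 45 of the 101 of Ocstamp. Other genes known from osteoclasts were low or absent. Calcr, the calcitonin receptor, was at 0, Itgb3 had a UMI in 3 of the 13 cells, and Tnfrsf11a was at 1.40 against 0.541 in C1q macrophages. C1qa, Col1a1, Col3a1 and Dcn were at 0 in the 13 cells. For the 9 among the other phagocytes, the gate itself allows at most 1 C1q UMI. It also allows fewer than 10 UMIs of the stroma markers, which include Col1a1 and Col3a1. Ptprc was at 1.25 against 6.71 in C1q macrophages and Lyz2 at 0.184 against 28.0, while Csf1r was at 3.53 against 2.01 and Cd68 at 6.11 against 7.18. Because a few cells decide it, the level of Ctsk in other phagocytes was 22.2 and 2.38 in the Csf1rfl/fl tumors and 0.209 and 6.11 in the Lyve1CreCsf1rfl/fl tumors, and it was 0.0301, 0.0341, 0.209 and 0 in the same order without the 13 cells. Outside that gate Ctsk was highest in Arg1 macrophages, at 0.475 and 0.415 against 0.120 and 0.187, from 33 UMIs in 19 cells. All 4 of these values were above those of C1q macrophages (0.0123 to 0.0830).

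**Figure D2:**
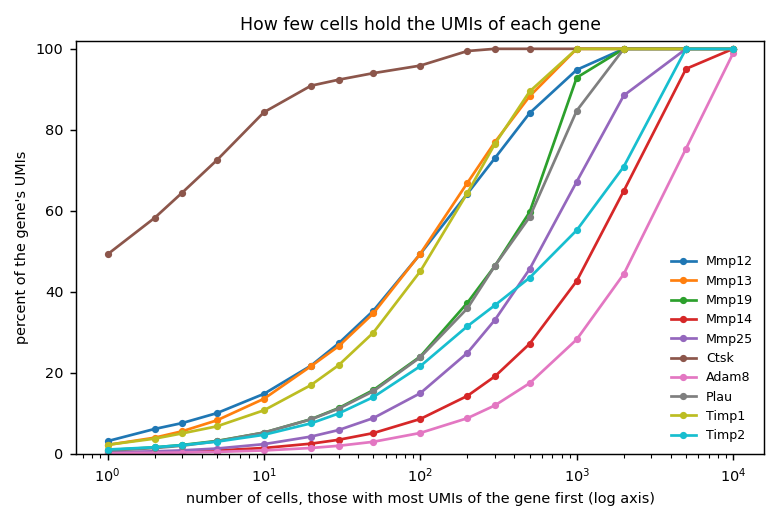
Cumulative percent of each gene's UMIs (y axis) held by the cells with most UMIs of that gene (x axis, number of cells, logarithmic) among the 28429 kept cells. The Ctsk curve starts at 49.2% with 1 cell, while the curve of Adam8 stays lowest.

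Adam8, a membrane-anchored metalloprotease-disintegrin of granulocytes and activated macrophages, was the most widely detected member, with a UMI in 36.0% of the kept cells. In neutrophils it was at 4.10 and 5.43 in the Csf1rfl/fl tumors and at 4.60 and 4.84 in the Lyve1CreCsf1rfl/fl tumors. Arg1 macrophages had 3.47 and 5.23 against 4.15 and 3.37, lower than the neutrophils of the same tumor in all 4 tumors with overlapping ranges. Other phagocytes (2.24 to 2.51) and C1q macrophages (1.71 to 2.62) overlapped each other, and Ly6c2 monocytes had 0.971 to 1.49. At 1500 UMIs per cell, 46.7% ± 2.90 (SD, n = 4) of neutrophils and 6.92% ± 1.11 of T cells had an Adam8 UMI (58.5% and 17.8% before thinning).

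Plau encodes urokinase, which turns plasminogen into plasmin and so starts a cascade that also activates metalloproteinases. Its highest mean was in C1q macrophages, at 0.395 and 0.483 in the Csf1rfl/fl tumors and at 0.330 and 0.266 in the Lyve1CreCsf1rfl/fl tumors. Tumor cells and stroma (0.209 to 0.333) and other phagocytes (0.171 to 0.361) overlapped with them. Ly6c2 monocytes had 0.104 to 0.235 and T cells 0.00641 to 0.0225.

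The inhibitors had a different distribution. Timp2, the inhibitor that also takes part in activation of pro-MMP2, was highest in tumor cells and stroma, at 3.07 and 2.32 in the Csf1rfl/fl tumors and at 2.55 and 2.46 in the Lyve1CreCsf1rfl/fl tumors. These 234 cells, 0.823% of the kept cells but with 7.38% of all UMIs, held 31.0% of all Timp2 UMIs. Neutrophils followed at 1.65 and 1.25 against 1.61 and 1.63, and C1q macrophages at 0.897 and 1.12 against 0.804 and 0.897, with no overlap between these 3 gates. Timp2 was also seen in T cells (0.262 to 0.418), plasmacytoid dendritic cells (0.338 to 0.696) and NK cells (0.154 to 0.216), and it was lowest in cDC1 (0 to 0.0317).

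Timp1, the secreted inhibitor with broad specificity, was likewise highest in tumor cells and stroma, at 0.919 and 0.573 against 0.619 and 0.726. Among immune cells it was highest in Cd209a dendritic cells, at 0.729 and 0.451 in the Csf1rfl/fl tumors and at 0.389 and 0.179 in the Lyve1CreCsf1rfl/fl tumors, below the stroma of the same tumor in 4 of 4. Arg1 macrophages (0 to 0.325), Ly6c2 monocytes (0.0591 to 0.192) and C1q macrophages (0.0441 to 0.213) had less and overlapped. Plasmacytoid dendritic cells had no Timp1 UMI in any tumor, where a count of 3 would have been a level of 0.0253 to 0.113. Timp1 (chromosome X: 20870166 to 20874735, plus strand) lies inside Syn1 (20860511 to 20921004) on the opposite strand.

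Gates were compared with Ly6c2 monocytes, which are known as precursors of tumor macrophages, within the same tumors (edgeR, 4 tumors, tumor as block). The members were chosen with earlier results of these data known, so their counts beside the shares of all genes are descriptions, here and below. Relative to monocytes, C1q macrophages had more Mmp13 (log2 fold change 3.28 ± 0.24, SE, adjusted p = 3.84e-09), Timp2 (2.51 ± 0.16, adjusted p = 5.78e-10) and Mmp12 (2.36 ± 0.13, adjusted p = 7.06e-11). Plau (1.10 ± 0.14), Adam8 (0.68 ± 0.12) and Mmp14 (0.50 ± 0.09) were also higher. A gene was tested when its counts reached the cutoff of edgeR's filter in as many tumors as a gate has, and where 1 gate alone reached it in all 4 tumors, and that gate was the higher one, the difference is given below as a description. The shares of all genes, here and below, are over every gene tested, including those that reached the cutoff in 1 gate alone. Counts limited to both gates are therefore not on the same set as these shares. In C1q macrophages both gates reached the cutoff for all 9 members tested. Of these, 6 were higher and 1 lower, whereas 31% of the 9485 genes tested were called (13.9% higher and 17.1% lower). The lower one, Mmp19 (-0.38 ± 0.14, adjusted p = 0.0366), lost its call when any of the 4 tumors was left out (adjusted p 0.0506 to 0.245) and without the block (adjusted p = 0.535).

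Arg1 macrophages had more of 4 members than monocytes, among 7 that reached the cutoff in both gates. Mmp13 (log2 fold change 3.58 ± 0.34, SE, adjusted p = 9.53e-13), Mmp12 (3.48 ± 0.27, adjusted p = 7.24e-16), Adam8 (1.72 ± 0.15) and Timp2 (1.49 ± 0.36) were higher. The other 3 did not pass, nor did Mmp25 and Timp1, which reached the cutoff in monocytes alone, among 8170 genes of which 17.2% were called (9.35% higher). Ctsk, with 33 UMIs in 171 Arg1 macrophages and 14 in 3873 monocytes, reached the cutoff in Arg1 macrophages alone, and its log2 difference of 5.54 ± 0.57 (SE) is a description. Mmp12 was higher in 3 of the 4 tumors. In the Lyve1CreCsf1rfl/fl tumor of run 2, where 1 UMI in 22 cells was enough to reach the cutoff, it was at 0.0936 in Arg1 macrophages and 0.673 in monocytes, and its call did not pass with DESeq2 (adjusted p = 0.0548). Mmp13 was higher in all 4 tumors, but in that tumor its 7 UMIs came from 1 cell.

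Neutrophils had more Timp2 (4.33 ± 0.16, SE, adjusted p = 8.96e-13), Adam8 (2.97 ± 0.14, adjusted p = 8.46e-12) and Mmp25 (2.53 ± 0.15, adjusted p = 1.74e-10) than monocytes. Mmp14 (-1.66 ± 0.14) and Mmp19 (-0.87 ± 0.19) were lower. With Plau, 4 members were higher and 2 lower of 6 that reached the cutoff in both gates, and 74.8% of 9388 genes were called (35.8% higher and 38.9% lower), so that a call here is the common case. Timp1 (23 UMIs against 256 in monocytes, -1.79 ± 0.39) and Mmp12 (160 against 1092, -1.09 ± 0.27) reached the cutoff in monocytes alone and are descriptions. Scaling moved all genes, as the median log2 fold change over all genes was -0.15 with TMM factors and -1.18 when only total UMIs were used. The share of calls that were higher was 47.9% with TMM and 19.6% with total UMIs. Timp2, Adam8 and Mmp25 kept their direction with total UMIs alone (3.31, 1.94 and 1.50), but Plau turned from 0.46 ± 0.19 (adjusted p = 0.0340) to -0.56. Its call was lost without the block (adjusted p = 0.0944), without the Lyve1CreCsf1rfl/fl tumor of run 1 (0.31, adjusted p = 0.212) and without that of run 2 (0.38, adjusted p = 0.0971).

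Both dendritic cell gates that were compared, Cd209a and mature dendritic cells, had less Mmp14 and Adam8 than monocytes. Plasmacytoid dendritic cells and cDC1 were not compared. In cDC1, Adam8 was at 1.24 to 1.99, with a mean of 1.49 against 1.24 in monocytes, and it was higher in 2 of 4 tumors. In Cd209a dendritic cells, Mmp14 (-2.68 ± 0.10, SE, adjusted p = 5.99e-14) and Adam8 (-0.77 ± 0.09) were lower. Timp1 was higher (1.86 ± 0.21, adjusted p = 5.01e-07). Mmp25 was higher as well (0.61 ± 0.22, adjusted p = 0.0293), but not when the Csf1rfl/fl tumor of run 1 (adjusted p = 0.0597) or the Lyve1CreCsf1rfl/fl tumor of run 1 (adjusted p = 0.166) or of run 2 (adjusted p = 0.150) was left out, nor without the block (adjusted p = 0.0524). Of 5 members that reached the cutoff in both gates, 2 were higher and 2 lower, with 46.5% of 9022 genes called (23.3% higher and 23.2% lower). The other 4 members tested reached it in monocytes alone and are descriptions. Mmp13 had 3 UMIs in 719 Cd209a cells and 214 in monocytes (-3.98 ± 0.48), Mmp19 29 and 592 (-2.45 ± 0.21), Plau 27 and 348 (-1.69 ± 0.26) and Timp2 45 and 317 (-0.78 ± 0.22).

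Mature dendritic cells had more Mmp25 (5.48 ± 0.09, SE, adjusted p = 1.32e-17), the only member that was higher among 4 that reached the cutoff in both gates. The other 3, Mmp14 (-2.22 ± 0.15), Timp2 (-0.76 ± 0.23) and Adam8 (-0.34 ± 0.09), were lower, with 69.5% of 9355 genes called (35.3% higher and 34.2% lower). Timp2 did not pass without the Lyve1CreCsf1rfl/fl tumor of run 1 (adjusted p = 0.135), and without the block neither Timp2 (adjusted p = 0.0865) nor Adam8 (adjusted p = 0.0869) passed. The 5 members that reached the cutoff in monocytes alone are descriptions. Plau had 11 UMIs in 1631 mature dendritic cells and 348 in monocytes (-3.35 ± 0.32), Mmp19 24 and 592 (-3.05 ± 0.24), Mmp12 86 and 1092 (-2.23 ± 0.22), Mmp13 19 and 214 (-1.83 ± 0.31) and Timp1 52 and 256 (-0.77 ± 0.26). The share of calls that were higher was 50.7% with TMM and 37.0% with total UMIs, and for C1q macrophages it was 44.9% and 59.4%, and no member called in either gate changed direction.

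**Figure D3:**
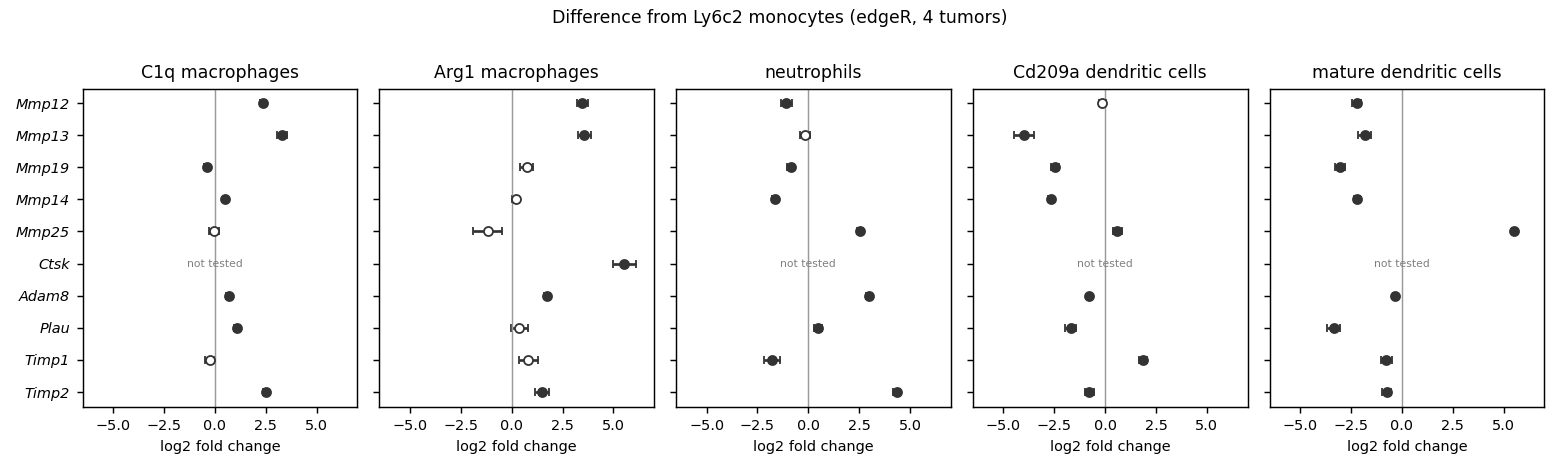
Log2 fold change of each member (x axis) between a gate and Ly6c2 monocytes of the same 4 tumors, from edgeR with TMM factors. Bars are SE, filled points have an adjusted p under 0.05, and filled points of members that reached the cutoff of the filter in 1 gate alone (such as Ctsk in Arg1 macrophages) are descriptions. Mmp25 in mature dendritic cells lies at 5.48 and Timp2 in neutrophils at 4.33.

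The wider pathway, a list of 55 other metalloproteinases, cathepsins, ADAM and plasminogen genes and their inhibitors, had higher and lower genes in each of the 5 comparisons with monocytes. In C1q macrophages 10 of its 27 tested genes were higher and 7 lower than in monocytes (median of the list 0.12, of all genes 0.00), where 31% of all genes were called. Among the 23 that reached the cutoff in both gates, 10 were higher and 6 lower. The highest values were those of the lysosomal proteases Lgmn (legumain, 1.91 ± 0.08, SE), Ctsd (1.27) and Ctsb (1.13), and the lowest those of Elane (-2.92), Prtn3 (-2.80) and Serpinb2 (-1.92), the first 2 being serine proteases of immature granulocytes and monocytes. Elane reached the cutoff in monocytes alone. Arg1 macrophages had 9 higher and 2 lower of 23 (17.2% of all genes called), all 11 among the 21 that reached the cutoff in both gates, led by Ctsd (1.87), Ctsl (1.75) and the neutrophil collagenase Mmp8 (1.64), while Prtn3 (-1.29) and Cst3 (-0.93) were the falls.

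In neutrophils 14 genes of the list were higher and 11 lower of 28 (74.8% of all genes called), with Mmp9 (7.47 ± 0.21, SE), Adam19 (4.99) and Plaur, the urokinase receptor (3.55), at the top and Elane (-2.08), Ctsc (-1.61) and Prtn3 (-1.24) at the bottom. Among the 21 that reached the cutoff in both gates, 10 were higher and 9 lower, and Mmp9, Adam19, Elane and Prtn3 are not among them. Mmp9 was at a mean of 3.38 UMIs per 10000 in neutrophils and 0.0366 in monocytes, and at 4.07 in other phagocytes, the gate of most cells rich in Ctsk. Cd209a dendritic cells had 4 higher and 20 lower of 26 (46.5% of all genes called), and 2 higher and 17 lower of the 21 that reached the cutoff in both gates. The highest values were those of Serpinf1 (3.17), Adam19 (2.47) and Cst7 (2.12) and the lowest those of Prtn3 (-3.70), Mmp8 (-3.50) and Elane (-2.89), of which Cst7 alone reached it in both. Mature dendritic cells had 5 higher and 18 lower of 26 (69.5% of all genes called), and 3 higher and 14 lower of the 20 that reached the cutoff in both gates. The highest values were those of Plat, tissue plasminogen activator (6.57), Adam19 (3.90) and Cst3, cystatin C (3.09), and the lowest those of Serpinb2 (-4.77), Mmp8 (-4.71) and Prtn3 (-3.22), of which Cst3 alone reached it in both. The median of the list was -1.12 and -1.10 in the 2 dendritic gates, against 0.03 and 0.02 over all genes.

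The study used this cross to deplete LYVE-1+ macrophages and asked how the cells that remain are altered, and the genotypes were compared within 4 gates (edgeR, 2 against 2 tumors, no block). With an adjusted p under 0.05, 0% of genes were called in C1q macrophages, Arg1 macrophages, Ly6c2 monocytes and neutrophils, and none of the members. DESeq2 called 0 genes in each as well. Unadjusted p-values under 0.05 were found for 280 of 8449 genes in C1q macrophages, which is 3.31%, and for 2 of the 10 members.

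These 2 were Mmp12 and Mmp13 in C1q macrophages. Mmp12 was 2.06 and 2.19 in Csf1rfl/fl and 3.97 and 4.73 in Lyve1CreCsf1rfl/fl tumors, a log2 fold change of 1.05 ± 0.23 (SE, 2 tumors in each genotype, edgeR adjusted p = 0.405). Mmp13, with 0.885 and 0.708 against 1.45 and 2.03, had 1.13 ± 0.26 (edgeR adjusted p = 0.443). Both tumors of the Cre genotype were above both controls for each gene. With the run as block, Mmp12 (1.05 ± 0.13, edgeR adjusted p = 0.0109) and Mmp13 (1.12 ± 0.20, adjusted p = 0.0495) were among 19 called genes, which are 0.225% of those tested. Without the Csf1rfl/fl tumor of run 1, which leaves 1 control, the log2 fold change of Mmp13 was 1.37. The tumor left out there is the control with more Mmp13 (0.885 against 0.708). In the Lyve1CreCsf1rfl/fl tumor of run 2, which had the highest level (2.03), 1 cell held 44.3% of the Mmp13 UMIs.

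The same order was seen in 3 other choices of cells, made after the values had been seen. These share cells and tumors with the gate, so they are no independent support. Over all kept cells with at least 5 C1q UMIs, gated or not, Mmp12 was at 1.31 and 2.21 against 3.32 and 3.15, and Mmp13 at 0.666 and 0.660 against 1.15 and 1.69. Of these cells, 55.1% and 31.5% against 38.2% and 31.5% were called doublets. Those in no gate overlapped between the genotypes for Mmp12 (1.04 and 2.23 against 2.38 and 2.11) but not for Mmp13 (0.592 and 0.606 against 0.696 and 1.47). Among C1q macrophages with no Arg1 or Gpnmb UMI, Mmp12 was at 1.22 and 1.20 against 2.88 and 3.85. Without the richest cell of each tumor, Mmp12 was at 1.72 and 1.98 against 3.33 and 3.24, and Mmp13 at 0.817 and 0.629 against 1.13 and 1.14.

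The share of C1q macrophages with an Mmp12 UMI at 1500 UMIs per cell was 10.1% and 8.73% against 16.1% and 14.6% (19.1%, 15.7%, 25.9% and 27.1% before thinning). For Mmp13 this share was 9.87% and 6.02% against 8.70% and 9.38%, with overlap. For Mmp13, 54 of the 122 Mmp13 UMIs of the Lyve1CreCsf1rfl/fl tumor of run 2 came from 1 cell. C1q macrophages were 5.53% and 4.26% of kept cells in Csf1rfl/fl and 2.31% and 2.01% in Lyve1CreCsf1rfl/fl tumors (481, 332, 166 and 96 cells). Of 1077 further cells with at least 5 C1q UMIs that no gate took, 703 were from the Csf1rfl/fl tumor of run 1. Other genes of the gate also had levels that did not overlap between the genotypes. Of 19 marker genes with a mean of at least 0.1 UMIs per 10000, 6 had both Lyve1CreCsf1rfl/fl tumors above both controls (Gpnmb, Ly6c2, H2-Ab1, Csf3r, Lyz2 and Cd14) and 6 had both below (Csf1r, C1qa, Arg1, Mki67, Folr2 and Apoe). Over all 8449 genes tested in this gate, 28.6% did not overlap between the genotypes. Folr2, a marker of tissue-resident macrophages, was at 0.199 and 0.331 against 0.0330 and 0.0664 (log2 fold change -2.43 ± 0.50, SE, edgeR adjusted p = 0.405), and Arg1 at 0.487 and 1.09 against 0.0661 and 0.432 (-1.76 ± 0.52, adjusted p = 0.913). Gpnmb, which defines the Arg1 gate together with Arg1, had the opposite order, at 0.312 and 0.270 against 0.352 and 0.432 (0.43 ± 0.30, SE, not called). H2-Ab1, a class II antigen presentation gene, was at 13.9 and 15.6 against 28.2 and 27.0. The monocyte marker Ly6c2 was at 13.2 and 14.0 against 18.1 and 16.4 (0.37 ± 0.25, not called), Lyz2 at 28.7 and 22.3 against 35.3 and 35.7, and C1qa, of the complement genes that define the gate, at 25.1 and 18.6 against 18.4 and 15.5 (-0.34 ± 0.28, not called). The part of these values in the Mmp12 and Mmp13 difference was not tested. The genotype difference of Mmp13 in C1q macrophages exceeded that in Ly6c2 monocytes by 2.15 ± 0.26 (SE, edgeR adjusted p = 0.000511), in a test chosen after seeing the data that called 0.354% of 10169 genes, and for Mmp12 this was 0.81 ± 0.18 (adjusted p = 0.0524).

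**Figure D4:**
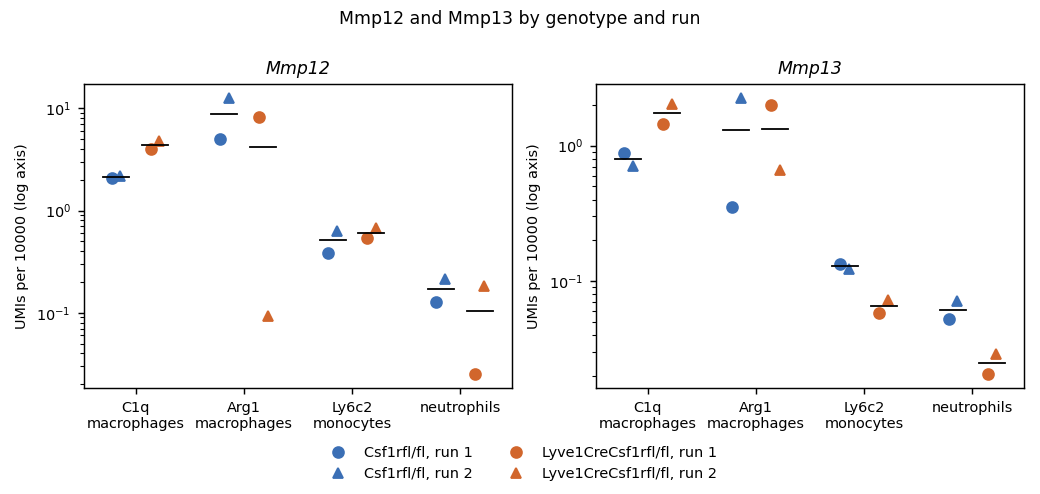
UMIs per 10000 (y axis, logarithmic) of Mmp12 and Mmp13 in 4 gates by genotype (color) and run (symbol), with a black line at the mean of 2 tumors. Both Lyve1CreCsf1rfl/fl tumors lie above both controls in C1q macrophages, and for Mmp13 they lie below them in Ly6c2 monocytes and neutrophils.

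The remaining members gave no call in any gate. In C1q macrophages, Mmp14 was at 2.39 and 2.87 against 3.45 and 3.14 (log2 fold change 0.36 ± 0.24, SE) and Plau at 0.395 and 0.483 against 0.330 and 0.266 (-0.50 ± 0.30). Mmp25 was at 0.0505 and 0.151 against 0.154 and 0.166 (0.76 ± 0.50), Ctsk at 0.0624 and 0.0123 against 0.0771 and 0.0830 (0.99 ± 0.71) and Timp2 at 0.897 and 1.12 against 0.804 and 0.897 (-0.22 ± 0.24), where the nearest tumors of the 2 genotypes were equal to 3 digits. With Mmp12 and Mmp13, 7 of 10 members had no overlap between the genotypes in this gate, as had 28.6% of the 8449 genes tested. Of these 7, Mmp25 and Ctsk reached the cutoff in the Lyve1CreCsf1rfl/fl tumors alone, where they were higher, and their values are descriptions. Adam8 (-0.01 ± 0.26) overlapped. In Ly6c2 monocytes, Mmp13 was at 0.134 and 0.123 against 0.0583 and 0.0722 (-0.99 ± 0.29, edgeR adjusted p = 0.999), Plau at 0.164 and 0.235 against 0.104 and 0.144 and Adam8 at 1.44 and 1.49 against 1.07 and 0.971, so that 3 of 9 members tested, and 1.20% of all genes, had an unadjusted p under 0.05. Among the 9, the genotypes did not overlap for these 3, nor for 18.2% of all genes. In neutrophils, Mmp13 was at 0.0522 and 0.0709 against 0.0204 and 0.0291 (-1.31 ± 0.49, SE), 1 of 8 members tested with an unadjusted p under 0.05, as had 1.74% of all genes, and the only one of the 8 without overlap, against 24.2% of all genes. It reached the cutoff in the Csf1rfl/fl tumors alone, as did Mmp12 there and in Arg1 macrophages, so these values are descriptions. In Arg1 macrophages 4 members could be tested, and none had an unadjusted p under 0.05 (3.43% of all genes had). The log2 fold change of Mmp12 in Arg1 macrophages was -6.47 without the Lyve1CreCsf1rfl/fl tumor of run 1, where the tumor with 1 Mmp12 UMI was left alone in its genotype. It was 0.0439 without that of run 2. In neutrophils it was -2.59 without the Lyve1CreCsf1rfl/fl tumor of run 2 and 0.0619 without that of run 1, again with 1 tumor left in the genotype.

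Across the 48 gate and tumor sums with at least 10 cells, the genes most like each member were found by the correlation of log2(UMIs per 10000 + 0.1) among 11543 other genes. This is a description over sums that share libraries. The gate markers are among these genes, as Ccl22 is. Closest to Mmp12 were Lrp12 (r = 0.892), 1110002J07Rik (0.878) and C3ar1, the C3a receptor (0.868), and closest to Mmp13 were C3ar1 (0.931), AU022793 (0.930) and Pf4 (0.905). Mmp14 followed Lrp1 (0.948), Adam15 (0.916) and Itga5 (0.916), and Mmp19 followed Vcan (0.918), Stom (0.918) and Tfec (0.910). Mmp25 was closest to Relb (0.917), Gm10851 (0.905) and Ccl22 (0.903).

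Ctsk was closest to Atp6v0d2 (0.836), Mt3 (0.799) and Rcan1 (0.799). Adam8 followed Hk3 (0.886), Plin2 (0.885) and Tlr13 (0.879), and Plau followed Camk1 (0.903), Adam15 (0.896) and Myof (0.880). The inhibitors, like Ctsk, had looser partners than the other members. These were Ank (0.814), Bahcc1 (0.807) and Afdn (0.780) for Timp1, with Acta2 (0.778) and Bmpr1a (0.777) among those for Timp2. Among the members themselves, Mmp14 and Plau had r = 0.861, Mmp12 and Mmp13 had r = 0.857 and Mmp12 and Mmp25 had r = -0.03.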

How the data were processed

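The authors aligned reads to mm10 with Cell Ranger 6.0.1 and deposited raw counts, as UMIs per gene and cell and as counts per hashtag. They also deposited a table of corrected values (unit score here, SCTransform in Seurat, made from singlets with under 5% mitochondrial reads and without clusters particular to 1 tumor), of which the cell names alone were used. Each hashtag was scaled within its run (centered log ratio), and the higher scaled hashtag of a kept cell gave its tumor. For 75 kept cells the higher raw hashtag was the other one. Gates were cut on lineage markers, and UMIs were summed per gate and tumor. The 10 members, the pathway list and the markers were chosen with earlier results of these data known. The named genes are the members, the 3 genes most like each by correlation (1 of them is not reported here), and the up to 3 pathway genes with the largest fold change in each direction. Doublets were marked with Scrublet in scanpy 1.11.5 and kept. Sums were tested with edgeR 4.0.16 (R 4.3.3, filterByExpr, TMM, quasi-likelihood, Benjamini-Hochberg, threshold 0.05), with the tumor as block between gates and no block between genotypes. SEs were derived from the log2 fold change and its F. With 2 tumors per genotype, p-values rest on few mice and on a dispersion that edgeR estimates with the help of other genes. They therefore need not measure the spread of a single gene between these mice. Mmp12 in Arg1 macrophages against monocytes had an SE of 0.27, although the Lyve1CreCsf1rfl/fl tumor of run 2 went the other way (0.0936 against 0.673). Tumors of 1 run deviated together (correlation 0.225 to 0.386 in 4 gates), and as both genotypes were in every run, the run was used as block in an alternative. Alternatives included DESeq2 1.42.0, other cell sets and leaving out each tumor. On simulated counts with changes of 4-fold, 100% were recovered for C1q macrophages against monocytes (9280 genes) and 95% for genotype in C1q macrophages (8216 genes), and of 2-fold changes 70% and 18%. Of the genes called there, 6 of 176 and 14 of 127 had not been changed, the latter a larger share than the threshold of 0.05. The simulation used 1 dispersion for all genes and no tumor or run effect, and it changed only genes with enough counts. Its shares need not hold for genes with few UMIs or with UMIs in few cells.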

Additional observations from a re-analysis of the deposited data

Results flagged for a closer look

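Of 87 levels with at least 20 UMIs, 6 had 1 tumor apart from the other 3 by Dixon's criterion, where chance alone gives about 1 in 20. Mmp12 in T cells was 0.121 UMIs per 10000 in the Csf1rfl/fl tumor of run 2 and 0.0362 to 0.0410 in the others. Timp2 in neutrophils was 1.25 in the same tumor and 1.61 to 1.65 in the others. In the Csf1rfl/fl tumor of run 1, Mmp19 in other phagocytes was 0.174 (others 0.285 to 0.297) and Mmp25 in C1q macrophages was 0.0505 (others 0.151 to 0.166). Mmp14 was 0.0194 in NK cells of the Lyve1CreCsf1rfl/fl tumor of run 1 (others 0.0575 to 0.0635) and 0.103 in T cells of that of run 2 (others 0.0628 to 0.0667).

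The genotype difference in C1q macrophages was above that in Ly6c2 monocytes for Mmp13 by 2.15 ± 0.26 on the log2 scale (SE, edgeR adjusted p = 0.000511). This test was chosen after seeing the data, so its p-value is a description, and it called 0.354% of 10169 genes. In the Lyve1CreCsf1rfl/fl tumor of run 2, 1 cell held 44.3% of the Mmp13 UMIs of C1q macrophages, and 1 cell held 59.1% of those of monocytes. For Ctsk the same difference was 2.09 ± 1.20 (edgeR adjusted p = 0.757), which did not pass. Ctsk was flagged because the order of the tumors was opposite in the 2 gates, which is a description on few UMIs. In C1q macrophages Ctsk reached the cutoff in the Lyve1CreCsf1rfl/fl tumors alone, where it was higher, and in monocytes it was not tested by genotype. Ctsk had 36 UMIs in C1q macrophages and 14 in monocytes.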

How the results depend on the processing

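Alternatives were counted for 41 fold changes of members. These were the called ones, and the genotype values of Mmp12 in C1q macrophages, Arg1 macrophages and neutrophils and of Mmp13 in C1q macrophages. Among the called ones are the members that reached the cutoff in 1 gate alone, given above as descriptions. The genotype values of Mmp12 in Arg1 macrophages and neutrophils are descriptions too. For all of these, a value that kept its side of the threshold is no support. Other uncalled values were not counted, such as Mmp25 in C1q macrophages against monocytes (-0.024, and 0.0085 without the block). Of the 532 values counted, 489 kept their direction and side of the threshold, 34 lost and 6 gained a call, and 3 reversed. The reversals were Plau in neutrophils with total UMIs only (-0.56, an alternative added after seeing the data) and the genotype value of Mmp12 without the Lyve1CreCsf1rfl/fl tumor of run 2 in Arg1 macrophages (0.0439) and of run 1 in neutrophils (0.0619). Without the other Lyve1CreCsf1rfl/fl tumor these 2 values were -6.47 and -2.59. Genes called in C1q macrophages against monocytes (2939) were 1679 with DESeq2, 1500 with no replicate block and 1897 to 2958 when 1 tumor was left out, lowest without the Csf1rfl/fl tumor of run 1. In Arg1 macrophages (1402) they were 908 with marker cuts doubled. The cause was not tested.

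The genotype called 0 genes in each gate. With the run as replicate block it called 19 in C1q macrophages (2 of them members), 15 in Arg1 macrophages, 7 in monocytes and 18 in neutrophils. With no filter on low counts these were 32 (1 member), 19, 9 and 7. Without Scrublet doublets 4 were called in C1q and 4 in Arg1 macrophages, and with total UMIs only 1 in neutrophils. Leaving out 1 tumor, which assumes that the lone tumor varies like the others, gave 16 to 47 in C1q macrophages (0 to 1 member), 7 to 21 in Arg1 macrophages (0 to 1), 3 to 19 in monocytes and 6 to 24 in neutrophils (0 to 1).

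Levels stayed within 1 SD in 51 of 52 alternatives, and Adam8 in neutrophils was 3.92 in clusters made without these genes. Clusters did not separate C1q or Arg1 macrophages from Ly6c2 monocytes, so they gave no value there. Few cells limit Arg1 macrophages (22 in 1 tumor) and few UMIs limit Ctsk.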

Other observations

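Ungated cells with at least 5 C1q UMIs, of which 814 of 1077 were called doublets, had Mmp12 at 1.04 and 2.23 UMIs per 10000 in the Csf1rfl/fl tumors and at 2.38 and 2.11 in the Lyve1CreCsf1rfl/fl tumors, with overlap between the genotypes. Mmp13 was at 0.592 and 0.606 against 0.696 and 1.47 in the same cells.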
